A study of Quercus x morisii and Quercus suber and Quercus ilex with 16 samples.

Results

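The barks compared here are those of natural hybrids between holm oak (*Quercus ilex*) and cork oak (*Quercus suber*): the cork-like bark of 1 hybrid tree against the rhytidome-like bark of 4 other hybrid trees. The series measured the transcripts of outer bark in 16 libraries, 4 each for cork of cork oak, rhytidome of holm oak, cork-like bark and rhytidome-like bark, and 8 of them are the hybrid libraries described below. Cork-like bark was sampled on the 4 sides of its trunk, north, south, east and west, so its 4 libraries are 4 samples of 1 individual, which the study describes as a backcross with cork oak. Rhytidome-like bark was sampled at the south side of trees 14, 18, 20 and 21, and most rhytidome-like hybrids are described as first-generation crosses. All were adult trees of a mixed forest with no treatment, and the tissue was scraped from the inner face of outer bark detached while the phellogen was active. Of the 47292 loci in the table, 25472 reached a mean rlog of 1 over the 8 hybrid libraries and were tested. An rlog is a regularized log2 of the read count, scaled for library depth by the authors over all 16 libraries together, and differences given below are cork-like minus rhytidome-like on this log2 scale.

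The outer bark of trees is built by the phellogen, a cork cambium that divides to give phellem (cork cells) toward the outside. Phellem cells lay down suberin, a polyester of long-chain fatty acids, fatty alcohols, glycerol and ferulate, on top of a wall that can hold lignin, and then die. In a cork bark a single phellogen stays active and builds thick layers of phellem, whereas a rhytidome holds thin periderms that follow each other and enclose dead phloem between them. Fatty acid elongases, P450 hydroxylases, reductases and acyltransferases make the suberin monomers, ABCG transporters and lipid transfer proteins are thought to carry them outward, and GDSL-type esterases join or remove them in the wall. MYB and NAC factors switch these genes on or off in Arabidopsis roots and in potato tuber skin.

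Because the cork-like bark is a single tree, its spread is a spread between sides of a trunk, and the p-values below do not cover variation between cork-like trees. Bark type, individual and the share of cork oak genome cannot be told apart in this design. The side of the trunk can be held at south, but only with 1 cork-like library, and all reads were mapped to the cork oak genome. The median rlog over the loci tested lay between 7.55 and 7.66 in the cork-like libraries and between 7.30 and 7.40 in the rhytidome-like ones. The median rlog of 15 suberin enzyme loci was 13.67 to 13.94 in the cork-like libraries and 7.19 to 9.87 in the rhytidome-like ones. The study chose these loci on these same samples, so this median is no independent check for suberized tissue. The marker searches for phloem, xylem and fibres, and dividing cells returned no locus. *BAM3*, a phloem receptor planned as a phloem marker, is named in the study's table but was missed by the search. It was lower in cork-like bark. Its values and those of the regulators *HB-8*, *WOX4* and *AIL6* of vascular and meristem cells are given below. The share of other cell types was not tested. Fewer cells of a type and less RNA per cell cannot be told apart in such bulk tissue.

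The first principal component held 67.1% of the variance and separated the barks. Cork-like libraries scored 124.5 ± 10.2 and rhytidome-like libraries -124.5 ± 5.2 (mean ± SD, n = 4 each). The second component, with 10.2%, spread the rhytidome-like trees from 106.5 for tree 21 to -74.4 for tree 20, and the third, with 8.77%, set tree 14 (82.2) apart from tree 18 (-89.6). The cork-like sides stayed between -5.88 and 7.86 on both. Pearson correlations were 0.986 to 0.991 between sides of the cork-like tree, 0.945 to 0.953 between rhytidome-like trees and 0.865 to 0.893 between the barks.

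**Figure D1:**
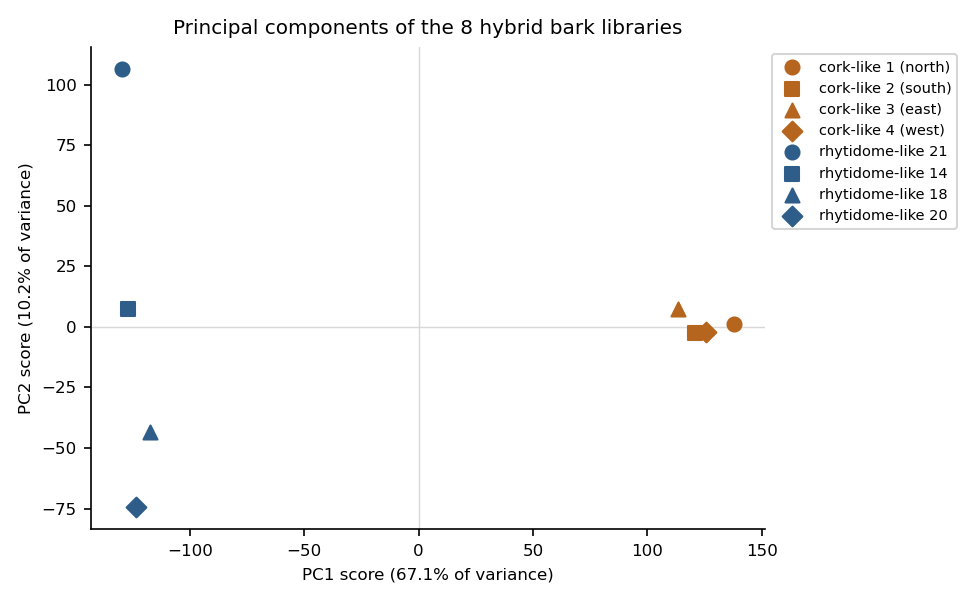
Scores of the 8 hybrid libraries on the first (x axis, 67.1% of the variance) and second (y axis, 10.2%) principal components of the rlog values of 25472 loci, with 1 symbol for each library. The 4 sides of the cork-like tree lie close together at the right, while the 4 rhytidome-like trees share a place on the first component and spread along the second.

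Of the loci tested, 7172 (28.2%) differed between the barks by limma, with a Benjamini-Hochberg adjusted p under 0.01 and an absolute log2 difference above 1 (called DEGs here). There were 4188 (16.4%) higher in cork-like bark and 2984 (11.7%) lower. The median difference was 2.26 for those higher and -1.77 for those lower, and 531 DEGs were higher by more than 4 against 183 lower by more than 4. The balance of directions depended on scaling: 58.4% of DEGs were higher in cork-like bark as deposited, 50.1% after quantile normalization and 43.9% after the library medians were made equal, and the median difference over all loci moved from 0.05 to -0.09 and -0.21. In 8274 loci (32.5%) the 4 values of one bark all lay above the 4 of the other and the means differed by more than 1. When the 4 cork-like libraries were averaged to 1 sample, 211 DEGs (0.828%) were left in a fit to the hybrids alone (5 samples), and 2536 (9.96%) in a fit that took the spread from the 12 other libraries as well (13 samples). Both fits assume that cork-like trees vary as the trees of the other barks do.

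The suberin enzymes stood higher in cork-like bark almost without exception. The study's table of development and wall genes, chosen by its authors on these same samples and so no independent evidence of direction, lists 16 loci for suberin enzymes, of which 15 were tested. Of these, 14 were higher in cork-like bark (16.4% of all loci tested were), none was lower and 1 was not called. Their median difference was 4.79, against 0.05 over all loci tested. *GPAT5* (LOC112028279), the acyltransferase that joins suberin acids to glycerol, stood at 15.80, 15.79, 15.35 and 15.94 at north, south, east and west in the cork-like tree. In the rhytidome-like trees 14, 18, 20 and 21 it stood at 10.92, 10.62, 11.06 and 8.81, so that every side lay above every tree and tree 21 was the lowest. The difference was 5.37 ± 0.44 (SE), with a limma adjusted p of 1.6e-05.

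The esterases and reductases of the group gave the same picture. *GELP38* (LOC112036148), matched to an esterase that polymerizes suberin in the Arabidopsis root, was at 11.20, 11.000, 10.98 and 11.12 in the 4 sides and 6.59, 6.12, 6.21 and 4.94 in the 4 trees (difference 5.11 ± 0.32, adjusted p 3.4e-06). Another *GELP38* locus (LOC111998717) was at 14.08, 14.02, 14.06 and 14.24 in the sides and 9.76, 9.42, 9.87 and 7.16 in the trees. The difference of 5.05 ± 0.52 had a larger error because tree 21 lay far below the other trees. *GELP51* (LOC112038093) was at 12.29, 12.14, 12.17 and 12.08 in the sides and 8.20, 7.24, 7.66 and 6.12 in the trees, and differed by 4.87 ± 0.37. *CER4/FAR3* (LOC112006012), a reductase that makes primary fatty alcohols, was at 13.31, 13.19, 13.14 and 13.04 and 8.86, 8.64, 8.39 and 7.19, a difference of 4.90 ± 0.32 at an adjusted p of 4.2e-06. *KCS2* (LOC112030764), an elongase of very-long-chain fatty acids, was at 13.83, 13.74, 13.67 and 13.94 and 9.40, 9.51, 10.39 and 8.21 (difference 4.41 ± 0.37). The locus that was not called, *CYP94B1* (LOC112020942), was low in both barks, at 3.08, 2.59, 3.40 and 4.02 in the sides and 5.29, 5.76, 3.90 and 3.26 in the trees. It is singled out here after its values were seen. Tree 21 had the lowest value of the 4 trees at all 15 suberin enzyme loci, and its median over them was 7.19 against 9.40, 9.42 and 9.87 in trees 14, 18 and 20. It was the lowest tree at 29.1% of all loci tested and at 34.1% of the DEGs higher in cork-like bark. These are transcript levels and not suberin content. In the study's chemical analysis the rhytidome-like hybrid numbered 21 had the highest suberin percentage of the rhytidome-like hybrids measured. How the transcripts relate to suberin content was not tested. With the cork-like libraries averaged to 1 sample, 1 of the 14 loci was still called in the fit to 5 samples and 13 in the fit to 13.

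**Figure D2:**
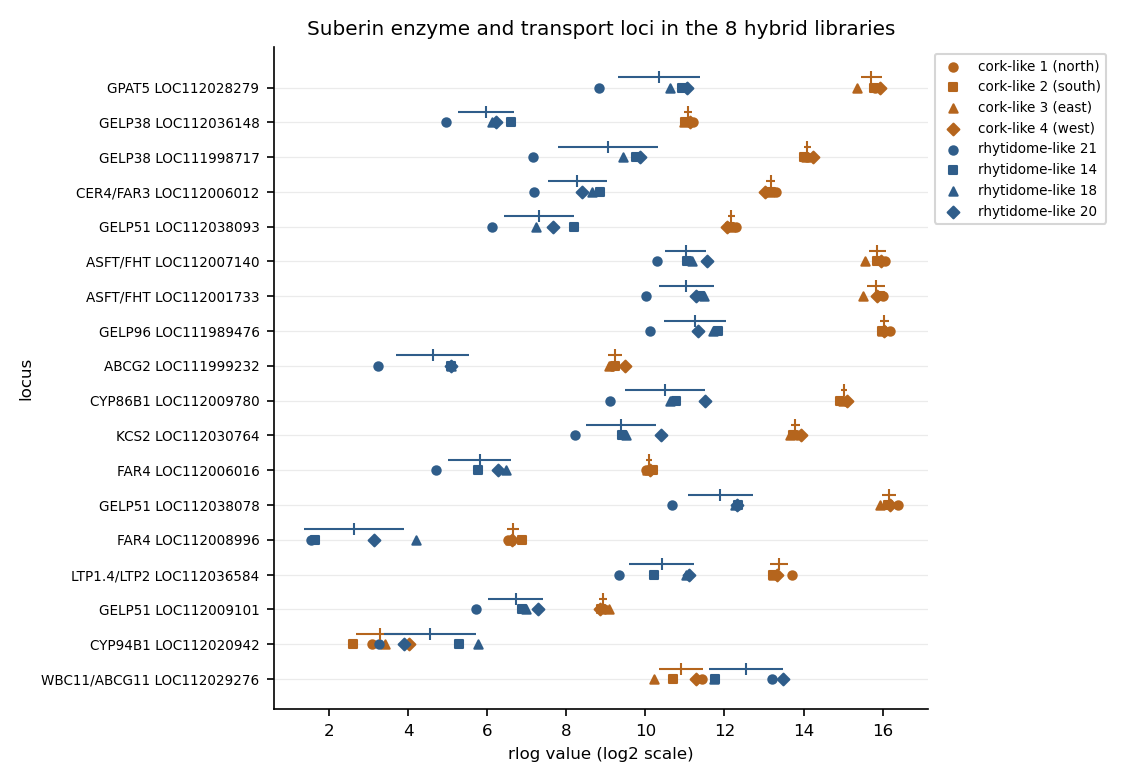
The rlog value (x axis, log2 scale) of 15 suberin enzyme and 3 suberin transport loci (y axis) in each hybrid library, with the mean and SD of each bark (n = 4) drawn just above the points. The cork-like values lie to the right at all loci but *CYP94B1* and *ABCG11*, and tree 21 (blue circle) is the lowest rhytidome-like library at most loci.

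The 3 transport loci did not move as a group, with 2 higher, none lower and 1 not called. *ABCG2* (LOC111999232), a transporter linked to suberin export, was at 9.16, 9.22, 9.09 and 9.49 in the sides and 5.07, 5.08, 5.08 and 3.24 in the trees. It differed by 4.62 ± 0.42 (adjusted p 2.7e-05), with 3 of the trees near 5.08 and tree 21 below them. The lipid transfer protein *LTP1.4/LTP2* (LOC112036584) was at 13.70, 13.23, 13.24 and 13.32 and 10.21, 11.02, 11.09 and 9.34, a difference of 2.96 ± 0.36. *ABCG11* (LOC112029276), a transporter of cuticle and suberin lipids, ran the other way, at 11.43, 10.69, 10.23 and 11.27 in the sides and 11.77, 11.73, 13.48 and 13.21 in the trees. Its groups did not overlap, but the difference of -1.64 ± 0.44 missed the threshold at an adjusted p of 0.013, and it passed after either rescaling, with all 16 libraries in the fit (0.00479) or without tree 14 (0.0088) or tree 18 (0.00758). Another locus matched to this transporter family, white-brown complex homolog protein 11 (LOC112038306), was lower in cork-like bark, at 4.73, 4.22, 4.51 and 4.51 against 8.29, 8.47, 9.83 and 9.68 (difference -4.58 ± 0.38).

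Of 9 named lipid transporter and lipid transfer loci, *LTP1.4/LTP2* among them, 3 were higher, 2 lower and 4 not called, with a median difference of -0.80. Over all loci tested 16.4% were higher and 11.7% lower. Other lipid transfer loci stood higher still. LOC112009540 was at 11.91, 11.84, 12.09 and 11.997 in the sides and 7.81, 7.77, 7.67 and 5.30 in the trees, and LOC111994752 at 11.44, 11.40, 11.59 and 11.53 and 7.26, 7.31, 7.31 and 5.09. At both, 3 trees lay close together and tree 21 stood far below them. The 2 lower ones were LOC112037446 (difference -2.52 ± 0.56, adjusted p 0.0048) and LOC111987395 (difference -2.36 ± 0.28, adjusted p 0.00012). The first of these calls was lost when any of the cork-like sides or tree 20 was left out, with adjusted p from 0.0132 to 0.0167.

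The MYB and NAC regulators of the study's table were mostly higher in cork-like bark: of 22 tested, 17 were higher, 4 lower and 1 not called, with a median difference of 3.41 and no overlap between the barks at any of the 22, where 47.3% of all loci tested did not overlap. These were also picked by the study on these samples. Over all loci tested 16.4% were higher and 11.7% lower. *MYB36* (LOC112023896), which controls the Casparian strip and the timing of suberin in Arabidopsis roots, was at 11.23, 11.29, 10.80 and 11.19 in the sides and 6.46, 6.18, 5.74 and 5.05 in the trees (difference 5.27 ± 0.29, adjusted p 2.1e-06). *MYB102* (LOC111989495), an activator of suberin genes, was at 11.90, 11.48, 11.64 and 11.69 and 6.79, 7.27, 7.01 and 6.77, and had one of the tightest spreads of the group (difference 4.72 ± 0.16, adjusted p 6.5e-07). *NAC058/StNAC103* (LOC112037487), a factor that represses suberin in potato tuber skin, was also higher, at 14.33, 14.09, 13.37 and 14.11 against 9.48, 9.14, 10.05 and 8.14 (difference 4.77 ± 0.37). The other activators of the table, matched to *MYB9*, *MYB93* and further *MYB36*, *MYB84* and *MYB102* loci, were among the 17 higher ones, apart from 1 *MYB84* locus. That locus, LOC112010399, was singled out after its values were seen: it was at 5.36, 6.05, 6.21 and 5.03 in the sides and 6.41, 6.53, 8.63 and 8.69 in the trees (difference -1.90 ± 0.59, adjusted p 0.024), and was not called.

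The 4 loci lower in cork-like bark belonged to *MYB4*, a repressor of phenylpropanoid genes, and *MYB5*, a factor of tannin and epidermal cell development. *MYB4* LOC112023509 showed the largest difference of the group, at 0.71, 2.14, 0.65 and 1.68 in the sides and 7.55, 7.81, 7.37 and 6.39 in the trees (difference -5.98 ± 0.46, adjusted p 1.1e-05). *MYB4* LOC111990470 was at 9.96, 10.44, 10.01 and 9.75 and 13.12, 12.96, 13.07 and 13.46 (difference -3.11 ± 0.18). Loci matched to *MYB4* went both ways, since LOC112009383, LOC112035436 and LOC112037069, named after their values were seen, were higher in cork-like bark by 3.86 ± 0.26, 3.60 ± 0.38 and 3.11 ± 0.15. *MYB5* LOC112003598 was at 8.51, 9.76, 9.82 and 8.94 in the sides and 13.16, 13.30, 13.45 and 12.87 in the trees (difference -3.94 ± 0.29), and *MYB5* LOC112035506 at 11.61, 12.39, 12.47 and 12.17 and 16.27, 16.37, 15.92 and 14.48 (difference -3.60 ± 0.40). Tree 21 was the lowest tree at 16 of the 17 loci higher in cork-like bark, against 34.1% of all DEGs higher in cork-like bark. With the cork-like libraries averaged to 1 sample, 5 of the 21 calls stood in the fit to 5 samples and all 21 in the fit to 13.

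**Figure D3:**
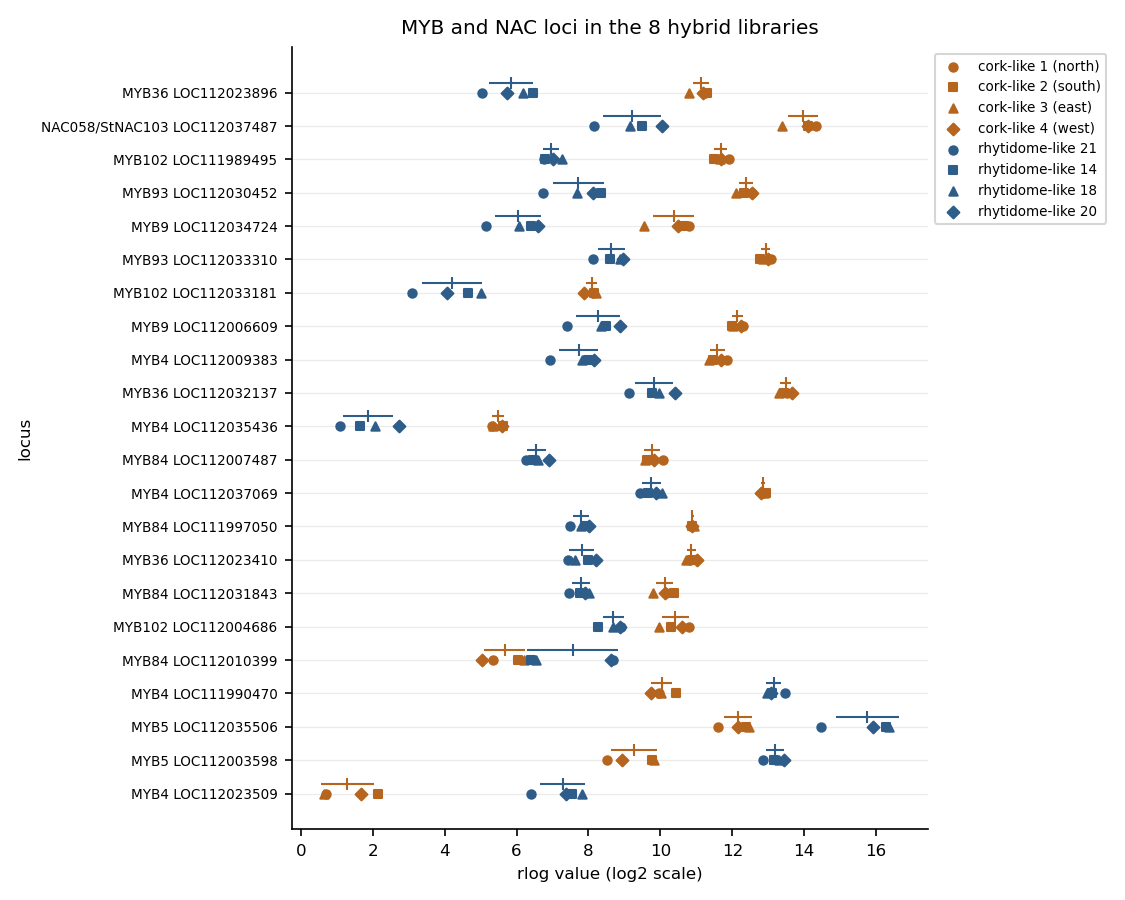
The rlog value (x axis, log2 scale) of 22 MYB and NAC loci (y axis) in each hybrid library, with the mean and SD of each bark (n = 4) just above the points. The 17 loci higher in cork-like bark fill the upper rows, and the 2 *MYB5* and 2 *MYB4* loci with the reverse order are in the lowest rows.

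Some peroxidases were far higher in cork-like bark, whereas a laccase was far lower. Of 5 peroxidases in the study's table, which were picked on these same samples, 3 were higher and 2 were not called. Of all loci tested, 16.4% were higher. *PER3* (LOC112041098) was at 9.56, 9.58, 10.23 and 9.78 in the sides and 3.84, 1.89, 3.46 and 2.10 in the trees (difference 6.97 ± 0.46, adjusted p 4.5e-06). *PER3* LOC112024648 was at 8.74, 8.74, 9.30 and 8.87 and 2.91, 3.65, 1.95 and 2.80 (difference 6.08 ± 0.37). Both were low in every rhytidome-like tree, and every cork-like side lay far above them. Another *PER3* locus (LOC111996084) differed by 1.47 ± 0.30, and this call was lost without cork-like side 1, 3 or 4 (adjusted p 0.0102, 0.0106 and 0.0131). It was also lost with all 16 libraries in the fit (0.0225), after quantile normalization (0.0101) and when tested against a difference of 1 (0.311). Both fits with averaged cork-like libraries lost it too. *PER39* (LOC112024643) was low in both barks, at 2.89, 1.17, 2.94 and 3.12 and 0.46, 0.52, 1.77 and 2.63, and was not called (difference 1.18 ± 0.60, adjusted p 0.13). A further peroxidase (LOC112009242), a member of the large class of secreted plant peroxidases, was at 8.52, 8.96, 8.85 and 8.38 in the sides and 2.97, 3.48, 2.06 and 0.75 in the trees, a difference of 6.37 ± 0.55.

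Laccase 14 (LOC112039871), of the copper oxidases that couple monolignols, gave the reverse. It was at 7.79, 8.04, 8.05 and 8.12 in the 4 sides and 14.72, 14.94, 14.90 and 14.69 in the 4 trees. The sides spanned 0.33 and the trees 0.26, and the difference of -6.81 ± 0.12 (adjusted p 1.4e-08) was also called with the cork-like libraries averaged to 1 sample, in both fits.

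The regulators of meristems and vascular tissue were divided. Of 15 loci tested, 6 were higher in cork-like bark, 7 lower and 2 not called, with a median difference of -0.78. Over all loci tested 16.4% were higher and 11.7% lower, and these 15 were picked by the study on these same samples. *AIL6* (LOC112018242), an AP2-type factor that sustains division in meristems, was at 9.70, 9.25, 9.16 and 9.83 in the sides and 4.25, 5.24, 4.86 and 4.72 in the trees (difference 4.71 ± 0.28, adjusted p 2.6e-06). *WOX4* (LOC111988759), which promotes division of the cambium, was at 11.45, 11.54, 11.18 and 11.33 and 8.70, 8.31, 8.31 and 9.04 (difference 2.78 ± 0.19). *HB-8* (LOC112029705), a class III homeodomain factor of procambium and xylem, was at 12.95, 12.76, 12.69 and 12.88 and 10.38, 10.29, 10.33 and 10.38. The 4 trees spanned 0.10 at *HB-8*, and the difference of 2.48 ± 0.11 had the smallest error of the group. *AIL5* (LOC112025300) was higher by 2.31 ± 0.31. *LBD41* (LOC112037478) was higher by 2.03 ± 0.37, with the east side at 12.79 and the other sides between 11.01 and 11.08, and this call was lost with a separate spread for each bark (adjusted p 0.0148). *LBD4* LOC111997151 was higher by 1.12 ± 0.22, just over the limit of 1, and it fell to 0.87 and 0.85 after quantile normalization and median centring, where it was not called. The call was also lost without cork-like side 2 or 4 (adjusted p 0.0129 and 0.013).

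Among the lower loci, *BAM3* (LOC112030870), a receptor kinase of the phloem lineage, was at 6.02, 8.57, 9.45 and 8.01 in the sides and 12.95, 12.95, 12.18 and 11.69 in the trees (difference -4.43 ± 0.64, adjusted p 0.00043). The sides of the single cork-like tree spanned 3.42 here, with north the lowest and east the highest, yet none reached the trees. Another *LBD4* locus (LOC112038775), a boundary gene of phloem and cambium in Arabidopsis, was at 6.45, 7.24, 7.46 and 6.51 and 11.09, 10.67, 10.67 and 11.04, a difference of -3.95 ± 0.26 opposite to that of the first. The other lower loci, given in full after their values were seen, were both *SHR* loci (-2.31 ± 0.39 and -2.14 ± 0.32), *STM* (-2.16 ± 0.21), *KNAT1* (-1.86 ± 0.15) and *PTL* (-1.78 ± 0.22). *STM* and *KNAT1* are homeobox genes that keep meristem cells undifferentiated, and *SHR* sets the layers of the root. With the cork-like libraries averaged to 1 sample, 2 of the 13 calls stood in the fit to 5 samples and 9 in the fit to 13.

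Growth and wall genes of the study's table were mostly higher in cork-like bark: of 11 tested, 8 were higher, 1 lower and 2 not called. Their median difference was 1.99, and among all loci tested 16.4% were higher and 11.7% lower. These loci too were picked by the study on these samples, so the counts are no independent evidence of direction. Averaging the cork-like libraries to 1 sample left 6 of these calls in the fit with 13 samples and 0 in the fit with 5. *XTH30* (LOC112025227), an enzyme that cuts and rejoins xyloglucan, was at 14.87, 14.61, 14.14 and 14.47 in the sides and 10.17, 10.01, 10.39 and 8.39 in the trees (difference 4.78 ± 0.40). A locus matched to xyloglucan endotransglucosylase/hydrolase 28 (LOC112005138) was at 14.55, 14.29, 13.90 and 14.26 and 10.66, 10.26, 10.73 and 9.64 (difference 3.93 ± 0.25). The barks were far apart at both, and tree 21 was the lowest library. The receptor kinase *HERK1* (LOC112000774), which promotes cell elongation, was at 13.71, 13.45, 13.78 and 13.70 and 10.59, 10.51, 11.15 and 10.15 (difference 3.06 ± 0.20, adjusted p 4.4e-06). The related kinase *FERONIA* went the other way. *FER* LOC112029792 was lower by -3.46 ± 0.51 (adjusted p 0.00048), with tree 20 at 12.78 and the other trees between 10.15 and 10.56. Its call was lost in both fits with the cork-like libraries averaged to 1 sample. *FER* LOC112000806 was at 3.20, 4.52, 4.67 and 4.43 in the sides and 12.19, 9.39, 12.61 and 2.91 in the trees: 3 trees lay far above the cork-like sides and tree 21 lay below them. With all 8 libraries it was not called (difference -5.07 ± 1.83, adjusted p 0.044), and without tree 21 it was (difference -7.19, adjusted p 0.000111). Cellulose synthase-like D5 (LOC112024806) was higher by 2.34 ± 0.28, and an endoglucanase of glycosyl hydrolase family 9 (LOC112027607) differed by 0.96 ± 0.12, under the limit of 1, which it passed after quantile normalization (1.20).

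Of the 2 auxin response factors in the study's table, 1 was lower in cork-like bark and 1 was not called, where 11.7% of all loci tested were lower. Both were picked by the study on these same samples. *ARF6* (LOC112032136), a factor of periderm growth in the Arabidopsis root, was at 13.57, 13.62, 14.01 and 13.96 in the sides and 15.31, 15.37, 15.51 and 15.28 in the trees (difference -1.58 ± 0.15, adjusted p 3.7e-05). *ARF2* (LOC111990207), a repressor of cell division and growth, differed by -0.97 ± 0.16, short of 1, although the groups did not overlap. Without the east side or tree 14 the difference was over 1 (-1.08 and -1.05) and was called. *ARF18* (LOC112005008) was lower by -1.63 ± 0.34. Its call was lost without cork-like side 4 or without tree 14, 18 or 20 (adjusted p from 0.0108 to 0.012). Gibberellin 2-oxidase 6 (LOC112011730), an enzyme that inactivates gibberellins, was at 8.02, 7.95, 7.62 and 7.79 against 4.07, 3.11, 4.27 and 3.26 and was higher by 4.17 ± 0.33. Both gibberellin loci that were tested were higher, where 16.4% of all loci tested were. A count over 2 loci does not describe the pathway.

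Genes tied to stress and cell death in the study's table were lower in cork-like bark, 3 of 3, against 11.7% of all loci tested. The study chose these loci on these same samples, so the count is no independent evidence of direction. Averaging the cork-like libraries to 1 sample left the *RRTF1* call in the fit with 13 samples and none in the fit with 5. *RRTF1/ERF109* (LOC112008191), a redox and jasmonate responsive factor, was at 4.88, 4.81, 4.90 and 4.96 in the sides and 9.69, 10.57, 10.55 and 11.48 in the trees. The sides spanned 0.15 and the trees 1.79, and the difference was -5.69 ± 0.33 (adjusted p 2.6e-06). The loci of *SOBIR1*, a receptor kinase of immunity and of floral organ abscission, were lower by -1.72 ± 0.29 (LOC111990511) and -1.53 ± 0.29 (LOC112013898). Of the 3 FRIGIDA-like loci, named after a flowering regulator, LOC111986594 was lower by -2.65 ± 0.22, and LOC112034633 (-0.83 ± 0.40) and LOC112017830 (-0.72 ± 0.19) were not called.

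Other pathways can be followed only through the loci that carry an Arabidopsis match in the rows of the study's annotation that were shown. Those rows open with lipid genes that the study grouped as high in rhytidome-type bark, so the counts below describe these loci and not the pathways. Of the loci tested that carry a name, 42.6% were DEGs, against 28.2% of all. Of 9 jasmonate loci, none was higher, 3 were lower and 6 were not called, with a median difference of -0.54. Lipoxygenase 2 (LOC111990533), of the first step of jasmonate synthesis, was at 7.19, 9.55, 10.46 and 8.56 in the sides and 13.15, 12.73, 13.19 and 12.29 in the trees (difference -3.90 ± 0.60), again with north the lowest side and east the highest. Lipoxygenase 3 (LOC112001646) was lower by -1.17 ± 0.29 (adjusted p 0.0084), a call lost with all 16 libraries in the fit (0.0352) and without any single library other than the east side (adjusted p from 0.0126 to 0.0271). Of 7 defence loci, none was higher, 2 were lower and 5 were not called. A CAP family protein (LOC111995890), of the pathogenesis-related 1 type, was at 8.91, 9.01, 9.54 and 9.05 against 14.42, 13.50, 14.64 and 14.68 (difference -5.18 ± 0.27), and MLP-like protein 28 (LOC111998487) was lower by -3.80 ± 0.73. Of 9 loci for reactive oxygen, cell death and senescence, none was higher, 4 were lower and 5 were not called, and all 4 calls were lost with the cork-like libraries averaged to 1 sample, with 5 or 13 samples in the fit. *SAG101* (LOC111990928) was lower by -1.32 ± 0.28, and its call was lost without cork-like side 1, 2 or 4 (adjusted p 0.0124, 0.0141 and 0.0116). Among 4 stress loci, heat shock protein 21 (LOC112008682), a chloroplast chaperone, was lower (-3.94 ± 0.43), a late embryogenesis abundant protein (LOC111984784) was higher (1.86 ± 0.19), and 2 were not called. Of 2 photosynthetic loci, a photosystem II 11 kDa protein-related locus (LOC112017872) was lower by -1.70 ± 0.29 and the other was not called. The calls at this locus, lipoxygenase 3, MLP-like protein 28 and the late embryogenesis abundant protein were lost in both fits with averaged cork-like libraries. The call at heat shock protein 21 was lost in the fit with 5 samples. Of 4 loci that the starch and sugar list matched, 2 were higher and 2 were not called, and both calls were lost with averaged cork-like libraries. The list did not match 2 further starch loci that were lower, which are described with the largest decreases. The single abscisic acid locus was not called.

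The remaining loci among the 10 largest named decreases came from varied families. A homeodomain-like protein (LOC112003190) was at 1.90, 4.48, 3.77 and 2.21 in the sides and 11.22, 11.45, 11.27 and 9.96 in the trees, which is the lowest of all differences in the table at -7.88 ± 0.60 (adjusted p 9.9e-06). A Pollen Ole e 1 allergen and extensin family protein (LOC112023845) was at 9.69, 9.33, 10.04 and 10.21 and 15.18, 14.43, 15.54 and 16.20 (difference -5.52 ± 0.35). At both, the lowest tree lay more than 4 units above the highest side. A pair of loci for starch metabolism were lower as well: a family 35 glycosyl transferase (LOC112005908), the family of starch phosphorylase, by -5.46 ± 0.52, and glucose-1-phosphate adenylyltransferase (LOC112024621), the first committed step of starch synthesis, by -4.83 ± 0.59. A UDP-glycosyltransferase (LOC112005619) reached 17.86, 17.94, 18.08 and 16.72 in the trees, among the highest levels of the table, and 11.45, 13.52, 14.21 and 12.52 in the sides. A heavy metal transport/detoxification protein (LOC112006448) was lower by -4.69 ± 0.56. At the last 4 loci north was the lowest side and east the highest.

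The loci with RT-qPCR primers in the study went in both directions. Of these 7 loci, among them the tubulin used as the reference, 3 were higher in cork-like bark, 1 was lower and 3 were not called. Over all loci tested 16.4% were higher and 11.7% lower. A glycine-rich protein, GRP DC7.1-like (LOC112034238), was at 16.77, 16.52, 16.02 and 16.16 in the sides and 11.74, 10.97, 12.23 and 10.01 in the trees (difference 5.13 ± 0.43). An aspartyl protease (LOC111989591) was at 13.65, 13.39, 13.54 and 13.41 and 10.12, 10.55, 10.68 and 10.43 (difference 3.05 ± 0.14). Tubulin beta-2 chain-like (LOC112004091), the reference gene of that RT-qPCR, was at 15.73, 15.55, 15.41 and 15.65 and 11.94, 11.81, 13.12 and 12.44, so every side was above every tree by at least 2.29 (difference 3.26 ± 0.27, adjusted p 1.5e-05). Of 7 tubulin loci with a name, 3 were higher, 1 lower and 3 not called, beside the same shares over all loci. Those called beside the beta-2 chain included 2 matched to tubulin alpha-4, LOC112040242 higher by 2.18 ± 0.32 and LOC112017746 lower by -1.53 ± 0.24. *RBOHD* (LOC112002845), an NADPH oxidase that makes superoxide, overlapped between the barks, at 8.31, 10.25, 10.48 and 9.48 in the sides and 12.80, 12.33, 9.37 and 10.75 in the trees (difference -1.69 ± 0.75, adjusted p 0.09).

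The same contrast exists between the parents, with cork of 4 cork oaks against rhytidome of 4 holm oaks, and it shares no library with the hybrid contrast, although the rlog was computed over all 16 libraries. Of the 25472 loci, 6357 (25.0%) were DEGs between the parents, 2686 (10.5%) higher in cork and 3671 (14.4%) lower. DEGs of both contrasts numbered 2848, which is 39.7% of the hybrid DEGs and 44.8% of the parental ones. Of these, 2585 had the same direction, 1375 higher and 1210 lower in the cork-type bark, and 263 the opposite one. Among the opposite ones, 212 were higher in cork-like bark but lower in cork, and 51 the reverse. The difference between the contrasts itself, hybrid minus parental, passed the same thresholds in 4766 loci (18.7%), 3126 (12.3%) above 0 and 1640 (6.44%) below 0. As with the DEGs, this balance moved with scaling, from 65.6% above 0 as deposited to 46.0% after quantile normalization and 33.5% after median centring. With the cork-like libraries averaged to 1 sample, 838 loci remained past the thresholds.

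For the 81 tested loci of the study's table, the hybrid contrast called 51 higher and 17 lower, the parental contrast 36 higher and 20 lower, and the contrasts differed at 36. At *CER4/FAR3* the hybrid difference of 4.90 stood beside 0.63 ± 0.34 between the parents. Cork was at 11.70 ± 0.60 and rhytidome at 11.07 ± 0.54 (SD, n = 4 trees each), and the contrasts differed by 4.27 ± 0.50 (adjusted p 2.3e-05). *LTP1.4/LTP2* was at nearly the same level in the parents (-0.0023 ± 0.37), with cork at 12.98 ± 0.67 and rhytidome at 12.99 ± 0.58, and its contrasts differed by 2.96 ± 0.55. *MYB4* LOC112023509 was low in cork (1.66 ± 0.97) and in rhytidome (2.59 ± 1.46) as well as in cork-like bark, so rhytidome-like bark alone stood high, and the contrasts differed by -5.05 ± 0.94. *HB-8* showed a parental difference of 0.52 ± 0.23 and a difference between contrasts of 1.95 ± 0.26 (adjusted p 5.6e-05). *PER39* was at 5.81 ± 2.16 in rhytidome and 0.59 ± 0.29 in cork, a parental difference of -5.22 ± 0.94, and the contrasts differed by 6.40 ± 1.18. The calls of a difference between contrasts at *LTP1.4/LTP2*, *MYB4* LOC112023509 and *PER39* were lost with the cork-like libraries averaged to 1 sample. At *GPAT5* the parental difference was 3.63 ± 0.18, and the contrasts were not called different (1.74 ± 0.52, adjusted p 0.017). The same held for *BAM3* (-6.48 ± 0.54 between the parents, 2.06 ± 0.90 between contrasts, adjusted p 0.085).

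**Figure D4:**
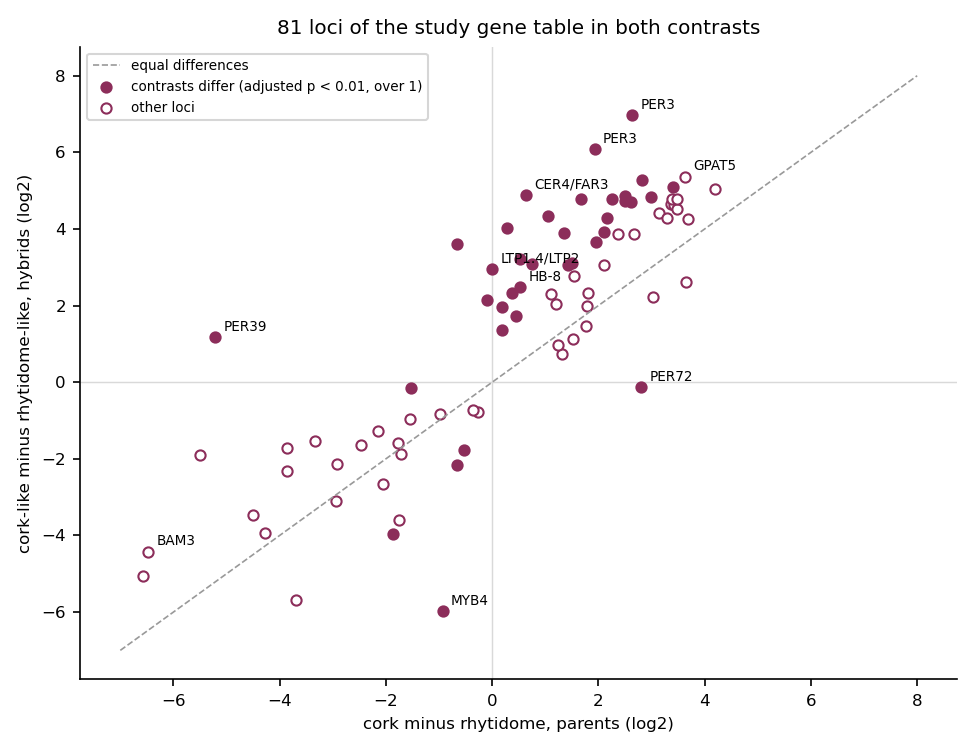
Log2 difference between the hybrid barks (y axis, cork-like minus rhytidome-like) against that between the parental barks (x axis, cork minus rhytidome) for 81 loci of the study's gene table, with filled points where the contrasts differ (36 loci) and a dashed line of equal differences. Most points lie in the quadrants of shared direction, and *CER4/FAR3*, *LTP1.4/LTP2*, *PER39* and *MYB4* lie far from the line.

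Among named loci whose mean rlog reached 5, the 5 largest positive differences between contrasts were those of a chitinase (LOC112019269, 6.13 ± 1.00), a peroxidase (LOC112009242, 5.40 ± 0.99), *RBOHD* (4.51 ± 1.19), a 2-oxoglutarate-dependent oxygenase (LOC112025595, 4.41 ± 0.53) and carbonic anhydrase 2 (LOC112019297, 4.41 ± 0.55). The *RBOHD* call was lost after median centring (adjusted p 0.0126), without the filter (0.0173), without the variance trend (0.0127), with a separate spread for each bark (0.0103), with averaged cork-like libraries (0.0954) and without most of the single libraries. Carbonic anhydrase 2, which interconverts carbon dioxide and bicarbonate, was lower by -6.62 ± 0.45 in cork than in rhytidome and by -2.21 ± 0.26 in cork-like than in rhytidome-like bark. Its cork-like values of 11.53, 11.83, 11.68 and 11.58 lay between cork (7.43 ± 0.35) and rhytidome (14.05 ± 1.01). The 5 most negative were those of the homeodomain-like locus named above (-6.84 ± 1.20), an oxygenase (LOC112016434, -5.66 ± 0.53), an enoyl-CoA isomerase (LOC111996487, -3.89 ± 0.53), a lipid transfer protein (LOC112037446, -3.43 ± 0.72) and a locus matched to asparagine-linked glycosylation 12 (LOC111993315, -3.16 ± 0.62). The oxygenase LOC112016434 turned direction between the contrasts: it was at 9.06, 9.42, 9.08 and 8.91 in the sides and 10.72, 10.84, 11.66 and 11.000 in the trees (difference -1.94 ± 0.22), while cork (10.12 ± 0.24) stood above rhytidome (6.40 ± 1.02).

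The SD within each bark was of a different size, and it is an SD between sides of 1 trunk in cork-like bark and between trees in the other barks. The median SD over loci was 0.222 among the cork-like sides and 0.477 among the rhytidome-like trees, beside 0.316 among cork oaks and 0.426 among holm oaks. The trees had the larger SD at 20816 loci (81.7%), with a median ratio of 2.10. An SD above 1 was found at 422 loci among the sides and at 4370 among the trees.

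Named loci that varied most among the trees fell into different splits. *FER* LOC112000806, described above, was low in tree 21 only. A chitinase (LOC112000839) was at 11.24, 11.05, 4.13 and 2.88 in trees 14, 18, 20 and 21, high in one pair of trees and low in the other, and at 6.57, 7.87, 8.08 and 7.34 in the cork-like sides between them. An ankyrin repeat protein (LOC112032093) was at 5.19, 4.20, 8.91 and 7.997, with trees 20 and 21 high. A P-loop nucleoside triphosphate hydrolase (LOC111995126) was at 9.14, 5.30, 9.65 and 7.38, with tree 18 the lowest. A locus matched to GBF's pro-rich region-interacting factor 1 (LOC112013245) was at 5.996, 6.99, 10.75 and 7.69, with tree 20 the highest. At none of these 5 was the difference between the barks called.

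Among the sides, the largest spreads were at *BAM3* and lipoxygenase 2, given above, at the homeodomain-like locus LOC112003190, and at the co-chaperone BAG6 (LOC112010934) and an ethylene-forming enzyme (LOC111997410). BAG6 was at 8.78, 10.68, 12.06 and 11.62 at north, south, east and west and at 14.43, 14.07, 15.002 and 14.12 in the trees (difference -3.62 ± 0.62). The ethylene-forming enzyme, which makes ethylene from its precursor, was at 8.42, 9.20, 9.23 and 11.59, with the west side above the rest. The north side was the lowest side at 49.9% of the DEGs lower in cork-like bark and the highest at 46.9% of those higher, against 29.8% and 30.3% of all loci tested. At these DEGs the north side was thus more often the side farthest from rhytidome-like bark. The east side was the highest at 40.6% of the lower DEGs and the lowest at 40.6% of the higher ones, against 28.2% and 32.9% of all loci tested. These shares are descriptions of 1 tree. The DEGs were selected with the same side values, so setting them beside all loci is no test of the side.

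**Figure D5:**
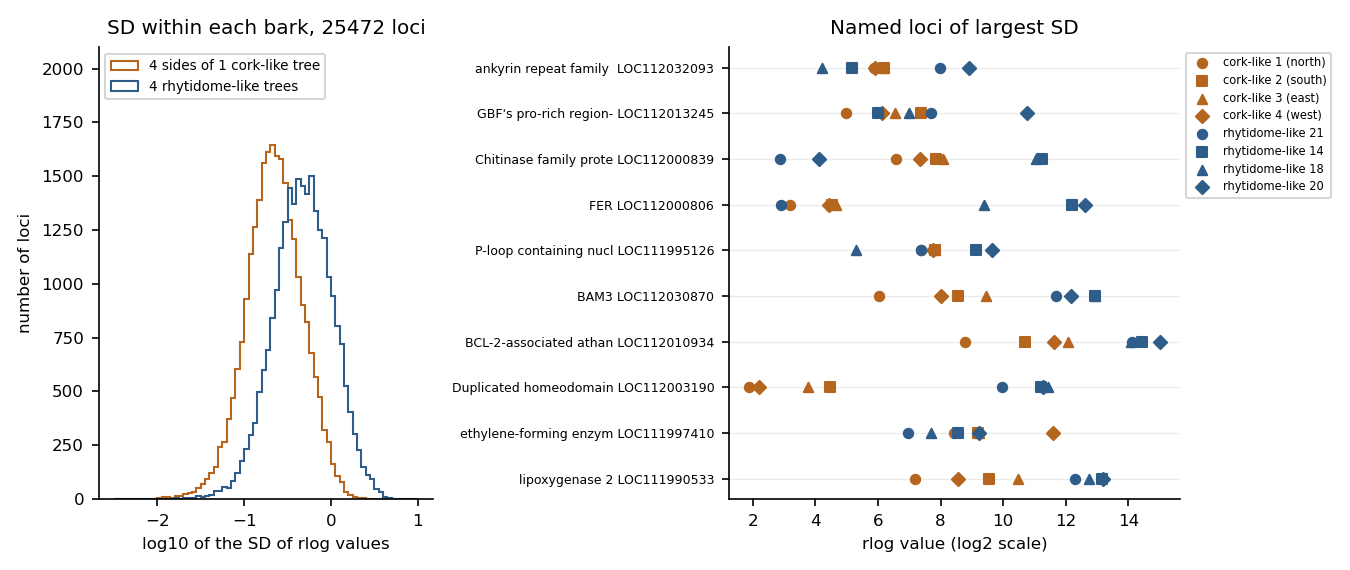
Left, number of loci (y axis) by log10 of the SD of rlog values (x axis) among 4 sides of the cork-like tree and among 4 rhytidome-like trees, over 25472 loci. Right, rlog values (x axis, log2 scale) in each hybrid library of the 10 named loci (y axis) with the largest SD, the upper 5 among trees and the lower 5 among sides. The curve for trees lies to the right of that for sides, at a median SD of 0.477 against 0.222.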

How the data were processed

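Outer bark RNA was sequenced in 16 libraries, and the 8 hybrid libraries were grouped by their titles. Reads were trimmed by the authors (Trimmomatic 0.40) and aligned by GSNAP to the genome of cork oak. Unique concordant pairs were kept and counted per locus (Cufflinks 2.2.1 and HTSeq 0.11.1 are named in the submitters' notes) and DESeq2 1.38.3 was used. Reads of near-identical copies can therefore be undercounted, and whether counting used strand is not given here. The deposited values are rlog values, a regularized log2 of the counts made by the authors, from -2.29 to 20.05 for 47292 loci. Counts were not used here, so the depth behind single values is unknown and no counting error is given, and the rlog draws differences of sparse loci toward 0.

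From these values limma 3.58.1 in R 4.3.3, with a trend of the variance, was fitted to the 8 hybrid libraries over loci whose mean rlog reached 1. This log-scale test was chosen because count models could not be used. P-values were adjusted by Benjamini and Hochberg over all loci tested, and a DEG needed p below 0.01 after adjustment together with a difference of more than 1, the study's thresholds. The parental contrast was fitted to its own 8 libraries and the difference between contrasts to all 16. Summaries and figures used Python 3.11.15, numpy 2.4.6, pandas 2.3.3 and matplotlib 3.10.9. The fit was tested on simulated data, with a pass criterion that was loosened after its first form was missed. The simulated libraries were independent and had the same spread in every bark. That test therefore does not cover a group made of 4 sides of 1 tree. Alternatives changed the libraries in the fit, the filter, the variance model and the scaling, tested against a difference of 1 (treat), averaged the cork-like libraries, kept the south side only and left out each library in turn.

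Names come from the study's supplementary gene tables (82 wall and development loci and 7 loci with RT-qPCR primers) and from the first 1218 rows of its annotation, 840 with an Arabidopsis match, so 531 of the loci tested carry a name. Named loci are up to 4 per group of the study's table by absolute difference, with those called against the majority of their group, the 10 highest and 10 lowest non-overlapping named DEGs of mean rlog of at least 5, 2 per direction of each other gene list, and the 5 of largest SD in each bark and of largest difference between contrasts in each direction. That gave 84 loci. The searches fixed for GDSL esterases, wax and triterpenoids, phenylpropanoids, pectin, cell division, ethylene, phloem, xylem, ribosomal proteins and WRKY factors returned no locus. That for flavonoids returned no tested locus. Their search terms missed some named loci of these kinds, among them the GELP esterases, *BAM3*, the ethylene-forming enzyme and a WRKY factor (LOC111982898). The members, lists and rules were chosen with earlier results of these data known.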

Additional observations from a re-analysis of the deposited data

Results flagged for a closer look

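Of 168 groups of 4 libraries checked among the 84 named loci, 15 held a library far from the other 3. Chance flags about 1 in 20 groups that are independent and unselected, and these loci were partly chosen for their spread or their difference, so the count is not compared with that rate. Tree 21 stood apart for UDP-glycosyltransferase (LOC112005619) at 16.72 (others 17.86 to 18.08), *ARF18* (LOC112005008) at 12.81 (others 13.94 to 13.98) and lipid transfer protein (LOC111994752) at 5.09 (others 7.26 to 7.31). Tree 21 stood apart for lipid transfer protein (LOC112009540) at 5.30 (others 7.67 to 7.81), homeodomain-like protein (LOC112003190) at 9.96 (others 11.22 to 11.45) and *GELP38* (LOC111998717) at 7.16 (others 9.42 to 9.87). Tree 21 stood apart for *SAG101* (LOC111990928) at 8.47 (others 7.67 to 7.80) and *ABCG2* (LOC111999232) at 3.24 (others 5.07 to 5.08). Tree 20 stood apart for heat shock protein 21 (LOC112008682) at 15.48 (others 14.21 to 14.39) and *FER* (LOC112029792) at 12.78 (others 10.15 to 10.56). Tree 14 stood apart for *ARF2* (LOC111990207) at 14.31 (others 14.61 to 14.62). The north side of the cork-like tree stood apart for P-loop hydrolase (LOC111995126) at 7.39 (others 7.76 to 7.83) and *FER* (LOC112000806) at 3.20 (others 4.43 to 4.67). The south side of the cork-like tree stood apart for *PER39* (LOC112024643) at 1.17 (others 2.89 to 3.12). The east side of the cork-like tree stood apart for *LBD41* (LOC112037478) at 12.79 (others 11.01 to 11.08).

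At 37 named loci the hybrid difference and the parental difference, fitted together by limma, differed past the thresholds, against 18.7% of all loci tested. Of the 84 named loci 10 were chosen for this difference, and many others for a large difference between the hybrid barks, which is part of it. The rules thus build in a high count, and the share over all loci is no measure of enrichment. The values below are hybrid minus parental differences on the log2 scale. With the cork-like libraries averaged to 1 sample, 31 of these calls ended. Above 0, it was 6.40 at *PER39* (LOC112024643), 6.13 at chitinase (LOC112019269), 5.40 at peroxidase (LOC112009242), 4.51 at *RBOHD* (LOC112002845) and 4.41 at 2-oxoglutarate-dependent oxygenase (LOC112025595). It was 4.41 at carbonic anhydrase 2 (LOC112019297), 4.33 at *PER3* (LOC112041098), 4.27 at *CER4/FAR3* (LOC112006012), 4.15 at *PER3* (LOC112024648) and 3.30 at *ARF18* (LOC112005008). The value was 3.08 at gibberellin 2-oxidase 6 (LOC112011730), 2.96 at *LTP1.4/LTP2* (LOC112036584), 2.53 at late embryogenesis abundant protein (LOC111984784), 2.53 at *XTH30* (LOC112025227) and 2.46 at *MYB36* (LOC112023896). Further values were 2.40 at lipid transfer protein (LOC111994752), 2.37 at *GELP51* (LOC112038093), 2.26 at lipoxygenase 3 (LOC112001646), 2.21 at *MYB102* (LOC111989495) and 2.10 at *AIL6* (LOC112018242). Next came 1.95 at *HB-8* (LOC112029705), 1.82 at xyloglucan endotransglucosylase/hydrolase 28 (LOC112005138), 1.71 at *GELP38* (LOC112036148), 1.63 at *HERK1* (LOC112000774) and 1.54 at tubulin beta-2 chain-like (LOC112004091). Smaller ones were 1.48 at aspartyl protease (LOC111989591). Below 0, it was -6.84 at homeodomain-like protein (LOC112003190), -5.66 at 2-oxoglutarate-dependent oxygenase (LOC112016434), -5.05 at *MYB4* (LOC112023509), -3.89 at enoyl-CoA isomerase (LOC111996487) and -3.43 at lipid transfer protein (LOC112037446). It was -3.16 at asparagine-linked glycosylation 12 (LOC111993315), -3.09 at glucose-1-phosphate adenylyltransferase (LOC112024621), -3.06 at family 35 glycosyl transferase (LOC112005908), -2.88 at Pollen Ole e 1 family protein (LOC112023845) and -2.45 at GRP DC7.1-like (LOC112034238). The value was -2.09 at *LBD4* (LOC112038775). No explanation of these differences was tested.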

How the results depend on the processing

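No paired analysis was possible because the hybrid groups share no replicate numbers. Counting cork-like bark as 1 tree changed most: with its libraries averaged to 1, 211 DEGs remained with 5 samples (118 higher, 93 lower) and 2536 with 13 (1532 higher, 1004 lower), and the south side alone against the 4 trees gave 163 (97 higher, 66 lower). Tested against a difference of 1 with treat, 2655 DEGs were left (1864 higher, 791 lower). The difference between contrasts then passed at 1183 loci, and at 838 with the cork-like libraries averaged and 13 samples.

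Other filters, variance models and scalings gave 6093 to 7651 DEGs, without the filter and after median centring, or 5571 with a mean rlog of at least 5. Leaving out each library in turn gave 5754 to 7376 DEGs, 3391 to 4279 higher and 2349 to 3097 lower, 3728 to 4806 loci that differed between contrasts, 8302 to 9102 loci without overlap, and 71.8% to 84.7% of loci with the larger SD among trees. The first principal component held 51.4% with loci scaled to unit variance and 82.5% over the 500 loci of highest variance. Of the 79 named loci whose difference is reported, *PER39* (LOC112024643) was the only one to turn sign, at -0.18 with the south side only, where it was not called. Calls ended at 59 of the named loci with 5 samples, 18 with 13 samples, 61 with the south side and 15 with treat. Of 37 named differences between contrasts, 31 calls ended with the averaged libraries, 25 with treat and 8 each under quantile normalization and median centring. The cause of these losses was not tested.

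Limits: the cork-like bark is 1 tree, the rlog holds no counting error, and reads of all hybrids were mapped to the genome of one parent.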

Other observations

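The direction of the DEGs varied with the level of the locus. Of the DEGs with a mean rlog of 1 to 5, 66.5% were higher in cork-like bark, against 62.3% at 5 to 9, 51.5% at 9 to 12 and 35.4% at 12 or more, over 1696, 3000, 1954 and 522 DEGs. This pattern depended on scaling. Quantile normalization brought these shares to 51.0%, 50.4%, 49.6% and 46.4%, from the lowest level to the highest. With equal library medians they became 53.8%, 49.5%, 34.5% and 23.9%.

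The 2 largest increases in cork-like bark fell on loci without a name in the tables used. LOC112034558 was higher in cork-like bark by 9.32, at 11.30 to 11.66 in the sides and 1.33 to 2.63 in the trees, and it was at 1.19 ± 0.22 in cork and 3.71 ± 2.37 in rhytidome (SD, n = 4 each). It was thus high in the cork-like tree and low in both parental barks as well as in the other hybrids, and the call stood with the cork-like libraries averaged to 1 sample. LOC112032117 was higher by 8.96, with tree 21 at 8.77 and the other trees between 1.13 and 2.08, and its call was lost with the cork-like libraries averaged to 1 sample (adjusted p 0.108 with 5 samples in the fit and 0.0114 with 13). In the other direction, the unnamed loci LOC111996516 and LOC112033174 fell by 7.31 and by 6.68, with adjusted p of 0.0200 and 0.0131 in the averaged fit with 5 samples and 0.0279 and 0.00233 in that with 13, and both were also lower in cork than in rhytidome, by 6.07 and 4.60.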
